A study of Rattus norvegicus with 6 samples.

Results

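Mir195, Mir301b, Mir410 and Mir3545 are 4 rat microRNA genes, each read by 1 probe of a lncRNA array that held 6716 probes, 292 of them for microRNA genes. Their probes are RB_p_rnol003321 (Mir195), RB_p_rnol004595 (Mir301b), RB_p_rnol003824 (Mir410) and RB_p_rnol005737 (Mir3545). They were chosen by their values in these samples, which were higher in the hippocampus after transection of the fimbria-fornix (FF), a tract through which septal fibres reach the hippocampus. The comparison of their group values below is therefore a description and received no test of its own. Calls for them from fits over all probes are given as description too. Compared were 3 denervated hippocampi of adult Sprague-Dawley rats, taken 7 days after FF transection, and 3 normal, untreated hippocampi of the same strain. The methods speak of paired rats of both sexes but not of which samples form a pair, and no sham operation is mentioned. Groups and signs follow the sample titles, and every difference is denervated minus normal. The authors' deposited lists of changed probes carry the opposite sign, and the list named as up holds probes with higher normal values. Each sample was total RNA hybridized in 1 colour (Cy5), and the values are the authors' log2 normalized intensities.

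A microRNA gene is transcribed as a long primary transcript, from which a short hairpin is cut, and 1 or both arms of the hairpin become the mature microRNA. The mature strand guides the silencing of mRNAs that pair with its seed, bases 2 to 8, so microRNAs with the same seed form a family with shared targets. In the hippocampus, microRNAs are known to act on neural stem cell division, neuronal differentiation and synaptic plasticity. Several microRNA genes lie side by side and are cut from 1 primary transcript, while others lie on opposite strands of the same DNA. The labelling kit primes on poly(A) tails, which mature microRNAs lack, and probe sequences were not analysed here. Which transcript of its locus a probe read was not determined, and no value below is a level of mature microRNA.

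The hairpins of the 4 genes, from RefSeq on build GRCr8, are shown first, since the array names its probes by these RefSeq transcripts. Capitals mark the mature arms.
Mir195, chr10:55450495-55450581, plus strand: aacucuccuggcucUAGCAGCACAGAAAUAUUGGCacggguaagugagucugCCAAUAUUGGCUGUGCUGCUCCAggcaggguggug
Mir301b, chr11:97384033-97384110, plus strand: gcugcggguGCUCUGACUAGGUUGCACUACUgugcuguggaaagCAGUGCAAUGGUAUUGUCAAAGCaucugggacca
Mir410, chr6:134579763-134579838, plus strand: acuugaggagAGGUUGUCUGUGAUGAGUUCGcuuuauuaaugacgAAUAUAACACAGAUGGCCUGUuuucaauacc
Mir3545, chr6:137020691-137020805, minus strand: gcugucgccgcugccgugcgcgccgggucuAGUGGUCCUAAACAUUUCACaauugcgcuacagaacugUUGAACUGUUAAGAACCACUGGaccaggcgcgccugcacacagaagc
Mir203, chr6:137020705-137020801, plus strand: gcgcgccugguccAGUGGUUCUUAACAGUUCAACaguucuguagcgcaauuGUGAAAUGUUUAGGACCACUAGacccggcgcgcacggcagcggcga
Mir203 is shown because its whole hairpin of 97 bases lies within the Mir3545 hairpin of 115 bases on the opposite strand, and the longest run that Mir3545 shares with the reverse complement of Mir203 is 97 bases. The mature products of Mir3545 are named miR-203b in RefSeq.

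One mature arm of each gene is given next with the seed in capitals, beside relatives with a probe that carry the same seed.
rno-miR-195-5p: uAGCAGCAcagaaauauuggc
rno-miR-497-5p: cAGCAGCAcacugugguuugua
rno-miR-322-5p: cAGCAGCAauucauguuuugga
rno-miR-301b-3p: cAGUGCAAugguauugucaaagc
rno-miR-130b-3p: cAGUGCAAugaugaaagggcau
rno-miR-130a-3p: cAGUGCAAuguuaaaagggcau
rno-miR-410-3p: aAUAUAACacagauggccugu
rno-miR-344b-1-3p: gAUAUAACcaaagcccgacugu
rno-miR-203b-3p: uUGAACUGuuaagaaccacugg
The seed AGCAGCA of miR-195-5p is that of the miR-15/16 family, known for targeting cyclins and other cell cycle genes, and 4 other rat genes of the table carry it, 2 of them with a named probe. Among the mature sequences of the table, the seed AGUGCAA of miR-301b-3p is also that of miR-130a and miR-130b. The seed of miR-410-3p is shared with 1 other gene of the table, Mir344b-1, and neither arm of Mir3545 has its seed in any other of the 724 mature sequences. The 4 genes thus belong to 4 different seed families.

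The 4 hairpins did not share a base composition or a length. Among the 264 measured microRNA genes with a hairpin in the RefSeq table, the median GC content was 49.5% and the median length 88 bases. Mir410 had 39.5% GC and 76 bases, Mir301b 52.6% and 78 bases, Mir195 54.0% and 87 bases, and Mir3545 57.4% and 115 bases. The predicted folding energy was -45.1 kcal/mol for Mir195, -28.7 for Mir301b, -29.5 for Mir410 and -50.3 for Mir3545, against a median of -37.6. Per base, 13.3% of hairpins were more stable than that of Mir195, 41.3% than that of Mir3545, 68.9% than Mir410 and 76.9% than Mir301b.

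By position, Mir195 lies 256 bases from Mir497 on chromosome 10, and Mir301b lies 270 bases from Mir130b on chromosome 11, within the span of the protein-coding gene 2610318N02Rikl. Mir410, the last hairpin of the imprinted Dlk1-Dio3 microRNA cluster of chromosome 6, lies within the span of the lncRNA gene LOC120103623. The gene table gives spans without exons, so whether these hairpins are exonic or intronic was not determined. Mir195 overlaps no other gene of the table, and Mir3545 overlaps Mir203 alone.

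Several facts of the arrays touch the results. The 6 array medians lay between 10.17 and 10.19. Of all values, 985 lay between -1 and 0, only 69 between 0 and 1 and 105 between 1 and 2, while 2243 lay between 7 and 8, so values thinned out between 0 and 2 without a gap. Values under 2 are called the low band here, a limit set with these values known. The share of probes in this band was 1.74%, 1.30% and 4.38% in denervated 1, 2 and 3, against 3.02%, 4.78% and 2.47% in normal 1, 2 and 3. The first principal component of all probes held 49.8% of the variance and did not follow the groups, with scores of -6.1, -64.6 and 60.6 in denervated 1, 2 and 3 and -52.8, 103.6 and -40.7 in normal 1, 2 and 3. Denervated 3 and normal 2 thus had the highest scores, and denervated 1 lay between them and the remaining samples. Over all probes denervated 1 correlated about equally with denervated 3 (Pearson's r = 0.842) and denervated 2 (0.840). The study's own quality table gives higher RNA integrity numbers for the denervated than for the normal samples, and their part in the results was not tested. In whole tissue, fewer cells of a type and less RNA per cell cannot be told apart.

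Mir195 belongs to the family known for targeting cell cycle genes. Its log2 intensity was 9.82, 9.34 and 10.09 in denervated 1, 2 and 3, and 7.91, 9.03 and 8.89 in normal 1, 2 and 3. All 3 denervated samples were above all 3 normal samples, but denervated 2 exceeded normal 2 by only 0.31, less than the pooled SD within groups of 0.51. The denervated mean was 9.75 ± 0.38 (SD, n = 3) and the normal mean 8.61 ± 0.61 (SD, n = 3), a log2 difference of 1.14 or 2.21-fold. Normal 1 held the lowest value, and without it the difference was 0.79.

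Mir301b, from the family of miR-130 and its relatives, read 8.04, 7.18 and 8.71 in denervated 1, 2 and 3. In normal 1, 2 and 3 it read 6.38, 7.0 and 6.01. The groups did not overlap, although denervated 2 and normal 2 were only 0.18 apart. Denervated samples averaged 7.97 ± 0.77 (SD, n = 3) and normal samples 6.46 ± 0.50 (SD, n = 3), a log2 difference of 1.51 or 2.85-fold. Its difference ranged from 1.15 without denervated 3 to 1.91 without denervated 2.

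Mir410, a brain-enriched microRNA of the imprinted cluster, had values of 2.96, 4.28 and 6.49 in denervated 1, 2 and 3. Its values in normal 1, 2 and 3 were -0.63, -0.24 and -0.70. All 3 normal samples lay in the low band, within 0.46 of each other, whereas the denervated samples spanned 3.53. Denervated samples averaged 4.58 ± 1.78 (SD, n = 3) and normal samples -0.52 ± 0.25 (SD, n = 3), a log2 difference of 5.10. On the linear scale the probe read 7.77, 19.5 and 89.7 intensity units in denervated 1, 2 and 3, and between 0.61 and 0.85 units in the normal samples, so the change of 34.3-fold is a ratio to signals below 1 unit. The brightest of these values, denervated 3, was at percentile 8.5 of its array.

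Mir3545, antisense to the epithelial microRNA gene Mir203, was at 6.19, 7.21 and 5.27 in denervated 1, 2 and 3. It was at 2.09, -0.67 and -0.19 in normal 1, 2 and 3. Normal 2 and normal 3 lay in the low band and normal 1 just above it, and the lowest denervated value exceeded normal 1 by 3.19. The denervated mean was 6.22 ± 0.97 (SD, n = 3) and the normal mean 0.41 ± 1.47 (SD, n = 3), a log2 difference of 5.82 or 56.3-fold, again a ratio to very small signals. In the denervated samples the probe lay between percentiles 6.1 and 9.4 of its array.

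**Figure D1:**
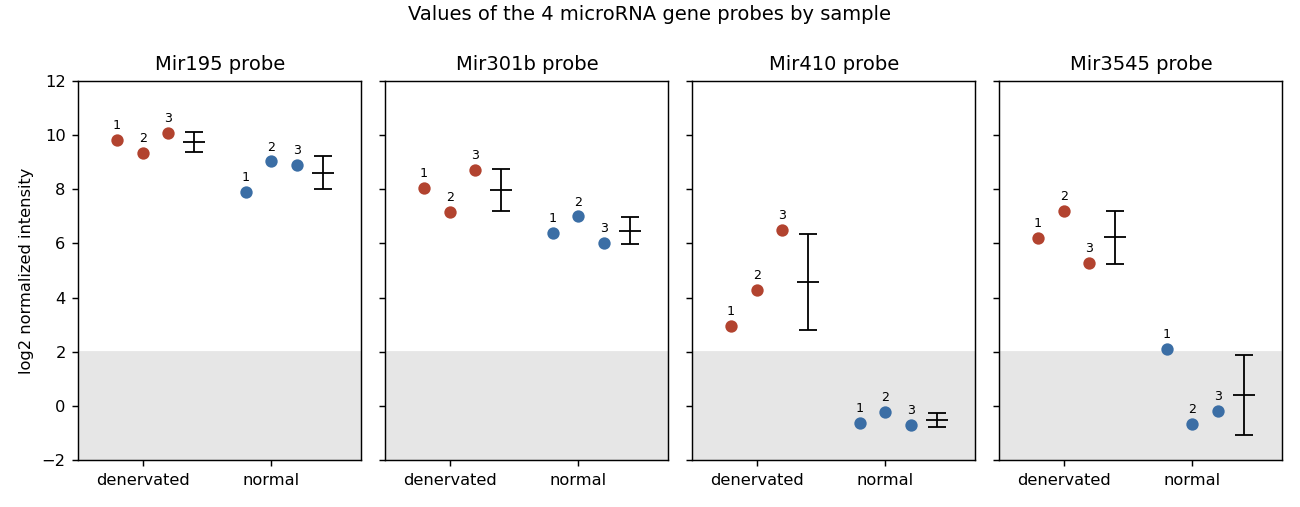
Log2 normalized intensity of the 4 probes in denervated (red, left) and normal (blue, right) hippocampi; numbers are the sample numbers, bars the mean and SD of 3 samples, and the grey area the low band under 2. The Mir195 and Mir301b groups come within 0.31 and 0.18 of each other, while all 3 normal samples of Mir410 and 2 of Mir3545 lie in the low band.

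All 4 probes passed the thresholds of the methods, a log2 difference above 1 and an unadjusted p under 0.05 in limma, and all 4 had no overlap between the groups. Over the whole array 1.04% of probes were higher and 0.298% lower at these thresholds (1.34% in either direction), and 0.0149% had an adjusted p under 0.05 in limma, none of them among the 4. Every denervated sample lay above every normal sample in 3.37% of probes, and the groups were apart in either direction in 5.9%. The 4 were chosen for their higher values, so nothing is read from these counts. Mir410 and Mir3545 passed when any 1 sample was left out, which their choice by this contrast favours, so nothing is read from it. Neither passed with values under 5 set to 5, and Mir410 did not pass after quantile normalization. Mir195 and Mir301b did not pass without denervated 1, denervated 3, normal 1 or normal 3, with the sample number as a block, or with an intensity trend. Mir195 also did not pass with the methods' t-test, which they name in their general statistics and not for the array, or without denervated 3 and normal 2 together. None of the 4 is among the brighter 50% of probes.

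The 4 probes did not vary alike within a group. Mir195 and Mir301b were highest in denervated 3 and lowest in denervated 2, and both were highest in normal 2 among the normal samples. Mir410 was also highest in denervated 3 and in normal 2, but lowest in denervated 1 among the denervated samples. Mir3545 ran the other way, with its highest value in denervated 2 and its lowest in denervated 3, and with normal 2 the lowest of the normal samples. Denervated 3 and normal 2 are the samples with the highest scores on the first principal component, and its part in these values was not tested. Without both samples the differences were 1.18 for Mir195, 1.41 for Mir301b, 4.29 for Mir410 and 5.75 for Mir3545. Pearson's r over the 6 samples is given as a description of arrays that share these scores and the group difference. It was 0.85 between Mir195 and Mir301b, 0.57 between Mir195 and Mir3545 and 0.66 between Mir301b and Mir3545. For Mir410 it was 0.82 with Mir195, 0.88 with Mir301b and 0.83 with Mir3545.

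By their place on their own arrays, the groups overlapped for Mir301b and Mir410 and lay apart for Mir195 and Mir3545. The Mir301b probe was at percentiles 14.2, 9.2 and 22.2 in denervated 1, 2 and 3, and at percentiles 7.2, 9.8 and 6.2 in normal 1, 2 and 3, so normal 2 lay above denervated 2. Mir410 was at percentiles 2.2, 2.8 and 8.5 in denervated 1, 2 and 3, against 0.6, 3.6 and 0.3 in normal 1, 2 and 3, with normal 2 above denervated 1 and denervated 2. Normal 2 held the largest share of low-band probes, so that a value of -0.24 ranked higher there. After quantile normalization Mir410 read 1.11, 1.84 and 6.77 in denervated 1, 2 and 3 and -0.56, 2.90 and -0.73 in normal 1, 2 and 3, the log2 difference was 2.70 and the probe no longer passed the thresholds. Mir3545 kept its groups apart by 3.28 after the same step, and Mir195 by 0.23.

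**Figure D2:**
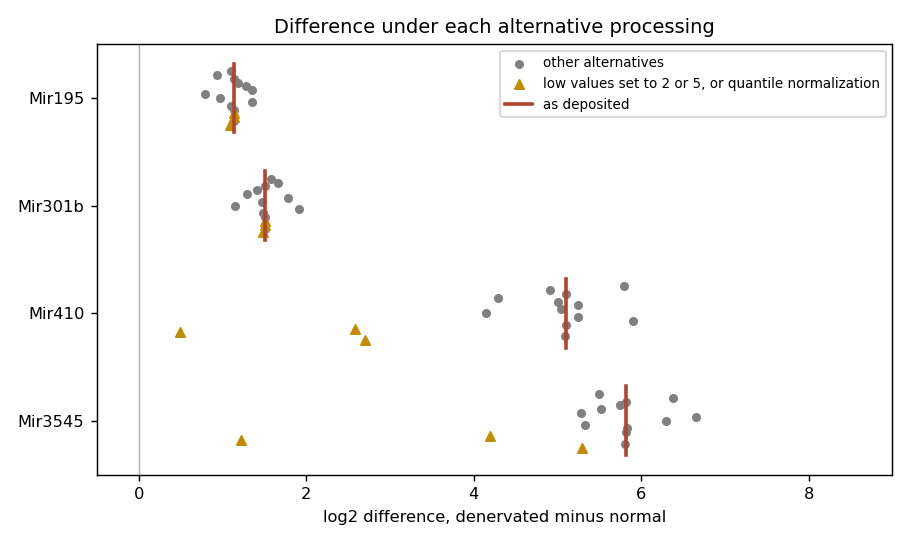
Log2 difference (denervated minus normal, x axis) of each probe as deposited (red line), with low values raised to 2 or 5 or with quantile normalization (triangles), and under the other alternatives (grey points). The Mir195 and Mir301b differences stay between 0.79 and 1.91, and that of Mir410 is 0.50 with values under 5 set to 5.

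Other microRNA genes that share a seed with 1 of the 4, or lie within 10 kb of 1 on either strand, numbered 19 with a probe. Of these, 11 had a higher and 8 a lower mean in the denervated hippocampus, with a median log2 difference of 0.03, against 0.02 over all 6716 probes. None passed the thresholds of the methods, as 1.34% of all probes did, or an adjusted p in limma (adjusted p = 1.00 for each). The exact permutation test of 3 against 3 samples cannot give a two-sided p below 0.1, and 1 of the 19, Mir130b, reached it (adjusted over the 19 tests, p = 1.00).

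Mir130b is the hairpin next to Mir301b and shares its seed. Its probe read 10.43, 10.50 and 10.40 in denervated 1, 2 and 3, and 9.69, 10.04 and 9.91 in normal 1, 2 and 3. The denervated samples lay within 0.10 of each other and above all normal samples, a property of 3.37% of all probes. The log2 difference was 0.56 (95% interval from -0.06 to 1.19), with an unadjusted p of 0.069 in limma, so the call was missed. Mir130a, of the same seed family but on chromosome 3, overlapped widely, with 9.0, 5.18 and 9.25 in denervated 1, 2 and 3 and 6.99, 9.45 and 8.39 in normal 1, 2 and 3. Mir301a was listed here in the same family as Mir130a and Mir130b. Among the mature sequences of the table, its shared seed is that of the other arm of Mir301b. Mir301a was at 4.53 in denervated 1 and in the low band in the other 5 samples.

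Mir497, the neighbour and seed relative of Mir195, did not separate the groups. It read 9.50, 9.36 and 9.85 in denervated 1, 2 and 3 against 9.11, 10.07 and 9.20 in normal 1, 2 and 3, and its highest value was a normal one. The log2 difference was 0.11, with a 95% interval in limma from -0.79 to 1.01. That interval does not exclude a difference near 1, so the probes of this pair are not shown to differ in response. Mir322, the X-linked family member, differed by 0.13 (95% interval -1.09 to 1.35).

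For Mir203, whose hairpin the Mir3545 hairpin contains in reverse complement, the values were 4.97, 7.08 and -0.19 in denervated 1, 2 and 3. In normal 1, 2 and 3 they were 3.85, 5.05 and 7.16. Its groups overlapped, and 1 denervated sample but no normal sample lay in the low band. The log2 difference was -1.40, with an interval from -6.21 to 3.41 (unadjusted p = 0.50 in limma). The probe's strand was not given in the sources used here, so the assignment of a signal to Mir3545 or Mir203 is uncertain.

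**Figure D3:**
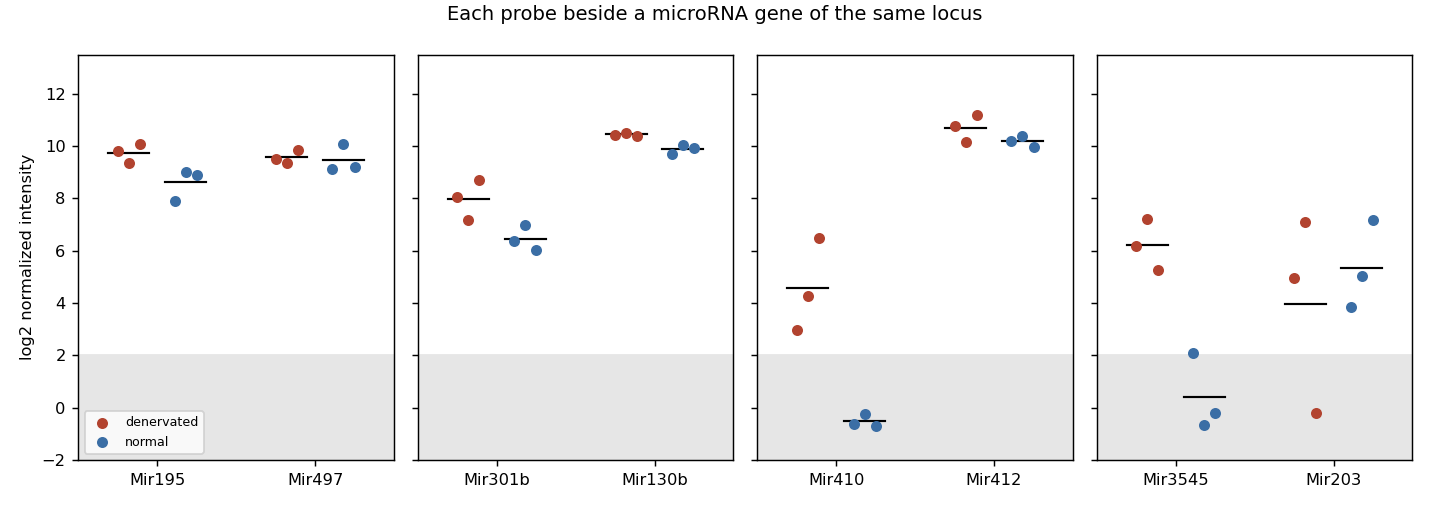
Log2 normalized intensity of each of the 4 probes beside that of a measured microRNA gene of its locus, in denervated (red, left) and normal (blue, right) samples; lines are means of 3 samples and the grey area is the low band under 2. Among the neighbours the groups are apart for Mir130b and overlap for Mir497, Mir412 and Mir203. Mir412 is not the nearest measured neighbour of Mir410, which is Mir3578.

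Within 10 kb of Mir410 the array read 11 other microRNA genes, with 6 higher and 5 lower means in the denervated hippocampus and a median log2 difference of 0.03. Mir3578, the nearest of them at 209 bases, differed by 0.03 (95% interval -1.22 to 1.27). Mir412, 357 bases away, lay between 10.17 and 11.19 in the denervated and between 9.98 and 10.37 in the normal samples, with overlap and a log2 difference of 0.53. Mir134, known for its action on dendritic spines, differed by -0.28 (95% interval -1.15 to 0.60), Mir377 by -0.24 and Mir485 by 0.38. Mir382 had 2 low-band values and Mir3581 had 1, and their intervals spanned more than 12 on the log2 scale. A fixed list of the Dlk1-Dio3 cluster, which leaves out Mir3578, Mir3581 and Mir3592, held 30 measured genes other than Mir410. Of these 30, 14 had higher and 16 lower means, with a median difference of -0.06. In limma 0 passed in either direction and 0 had an unadjusted p under 0.05, beside 90 and 132 of all 6716 probes. Nothing is read from 0 in a list of this size. Over the fixed lists other than the cell type markers, 0 probes passed with all samples, 2 without denervated 3, and 1 each without normal 2 and normal 3. The groups lay apart for 2 of the 30, Mir379 and Mir431, with lower denervated values and log2 differences of -0.35 each. Every denervated sample lay below every normal one in 2.53% of all probes. The seed relatives of Mir410 differed by -0.27 (Mir344b-1, 95% interval -1.66 to 1.12) and 0.03 (Mir494, -1.17 to 1.24).

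Of the 292 microRNA gene probes, 4 were higher and 0 lower at the thresholds in limma, beside 1.04% and 0.298% of all probes. The 4 are the genes of this report, so the 0 passing in limma among the 288 others follows from taking them out. With the methods' t-test 0 of the 288 passed and 4 had an unadjusted p under 0.05. In limma 1 of the 288 had an unadjusted p under 0.05, beside 132 of all 6716 probes. The 1 was Mir29b1, with 7.39, 7.51 and 7.97 in denervated 1, 2 and 3 and 8.48, 8.46 and 8.62 in normal 1, 2 and 3, a log2 difference of -0.90 (unadjusted p = 0.0194) and an adjusted p of 1.00 in limma. These counts depended on single samples: of all 292, 14 were higher and 2 lower without normal 2, and 7 higher and 7 lower without denervated 3, against 4 and 0 with all samples. From the percentiles 5 to 95, the differences of the 288 lay between -0.92 and 1.26. The members' pooled SDs within groups, 0.51 for Mir195, 0.65 for Mir301b, 1.27 for Mir410 and 1.25 for Mir3545, stand beside a median of 0.54 over the 292. At least 1 low-band value was found for 9.72% of the 288.

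**Figure D4:**
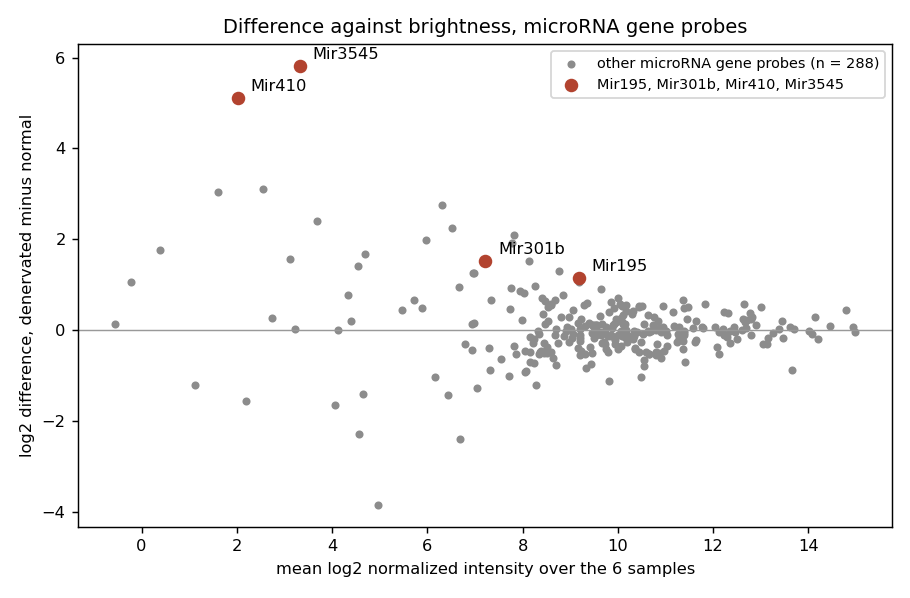
Log2 difference (denervated minus normal) against the mean log2 intensity over 6 samples for 292 microRNA gene probes, with the 4 genes in red. Mir410 and Mir3545 combine low means with differences of 5.10 and 5.82, and Mir195 and Mir301b have higher means and differences of 1.14 and 1.51.

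A pattern of all 3 denervated samples over 2 and at least 2 normal samples under 2 was held by 26 of the 6716 probes. Of the 292 microRNA gene probes, 3 held it. These were Mir410, Mir3545 and Mir384, the last named after its values were seen. Mir384 had 6.49, 4.0 and 4.15 in denervated 1, 2 and 3, and -0.51, 8.13 and -0.19 in normal 1, 2 and 3, so normal 2 exceeded every denervated sample. The mirror pattern, with the normal samples over 2 and at least 2 denervated samples under 2, was held by 12 of the 6716 probes and no microRNA gene. The limit of 2 was set with the values of Mir410 and Mir3545 known, and both patterns are rare, so no direction is read from these counts.

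The probes most like each gene across the 6 samples, by Pearson's r among the other microRNA genes, were Mir412 (0.95) and Mir361 (0.91) for Mir301b. For Mir195 they were Mir130b (0.89) and Mir547 (0.89), for Mir410 Mir130b (0.86) and Mir361 (0.80), and for Mir3545 Mir3596b (0.85) and Mir343 (0.84). These r values include the group difference for which the 4 genes were chosen. The log2 differences of these like probes lay between 0.33 for Mir343 and 0.70 for Mir547.

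Of 13 microRNA genes known for neurons or neurogenesis, 7 had higher and 6 lower means, and the median difference was 0.03. In limma 0 of them passed the thresholds and 0 had an unadjusted p under 0.05. Over all 6716 probes 90 passed and 132 had such a p, so nothing is read from 0 in so short a list. Mir132, an activity-regulated microRNA, was lower in every denervated than in every normal sample, as were 2.53% of all probes, with a log2 difference of -0.18 that did not pass. Mir9-2, a neural progenitor microRNA, read 4.64, 7.93 and -0.24 in denervated 1, 2 and 3 against 3.85, -0.61 and -0.22 in normal 1, 2 and 3. Mir137, a brain-enriched microRNA, was in the low band in all 6 samples, although it is known to be made in hippocampus. Mir124-3, a neuronal microRNA, was in the low band in normal 1 alone.

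MicroRNA genes that mark other cell types were also read, and none passed the thresholds or had an unadjusted p under 0.05 in limma. Over all 6716 probes 90 passed and 132 had such a p, so nothing is read from this in such short lists. The mean log2 level of 3 leukocyte and microglia genes (Mir142, Mir146a and Mir150) was 10.12 to 11.13 in the denervated and 10.41 to 10.83 in the normal samples. The 3 oligodendrocyte genes (Mir219a1, Mir219-2 and Mir338) averaged 9.14 to 9.88 in denervated and 8.34 to 9.86 in normal samples, and the 3 vascular genes (Mir126a, Mir143 and Mir145) 9.36 to 9.67 in denervated and 8.83 to 9.92 in normal samples. The 5 genes of ciliated cells and choroid plexus averaged 10.08 to 10.82 in the denervated and 10.13 to 11.22 in the normal samples. The 2 erythrocyte genes (Mir144 and Mir451a) averaged 8.82 to 9.20 in denervated and 5.63 to 9.14 in normal samples. The 5.63 is from normal 2, where Mir144 was in the low band at 0.79, against 7.67 and 7.73 in normal 1 and normal 3. Summed on the linear scale, the 2 genes read 1444 to 1660 in denervated and 1390.5 to 1717 in normal samples. The 4 listed muscle genes (Mir1, Mir133b, Mir206 and Mir208b), which hippocampus should lack, averaged 9.44 to 9.82 in the denervated and 8.79 to 9.62 in the normal samples and had no value in the low band. All 4 had higher denervated means, while Mir133a1, a measured muscle gene outside the list, had a log2 difference of -0.40. The part of cell composition in the 4 differences was not tested.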

How the data were processed

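The authors hybridized Cy5-labelled cDNA to the lncDETECT rat array, read it with a GenePix scanner, scaled each array by the 50% method, and deposited log2 normalized intensity, taking the median of repeated spots and averaging the arrays of each sample. Background correction, a filter on dim probes and the build of the annotation were not given in the sources used here. Lists of the authors' own fold changes and p-values were deposited too and were not used. A second deposited table holds the same log2 values and served as an alternative. One item is left out here.

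No further normalization was applied. Groups came from the sample titles. The denervated-normal comparison used limma (version 3.58.1, R 4.3.3, lmFit and eBayes, no block) over 6716 probes with Benjamini-Hochberg adjustment, and counted at a log2 difference above 1 and an unadjusted p under 0.05. The methods name limma and a rank product p for the array and a t-test in their general statistics; the rank product test was not run. The depth of an array cannot be counted, and 3 arrays per group limit the precision. The p-values measure only the variation among these 6 samples. The fit was tested on simulated data. RefSeq (GRCr8) named 388 of 1672 RefSeq accessions, 292 of them as microRNA genes, and 264 of these had a hairpin. Hairpins were folded with RNAfold 2.7.2. Exact permutation tests were two-sided.

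The members and lists were chosen with earlier results of these data known. Named genes are the 4 genes, microRNA genes with a shared seed or within 10 kb, members of fixed lists, microRNA probes past the thresholds, and the 2 probes most like each gene. Mir29b1, Mir384 and Mir133a1 were named after their values were seen, as were list members given as examples. The mir-15 and mir-16 genes had no named probe. Alternatives were quantile normalization, array medians, values under 5 set to 5, the second table, the sample number as a block, an intensity trend, the methods' t-test, the brighter 50% of probes, group medians, linear means and leaving out each sample. Values under 2 set to 2, and leaving out denervated 3 with normal 2, were added after the data were seen.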

Additional observations from a re-analysis of the deposited data

How the results depend on the processing

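Each of the 4 log2 differences kept its sign in all 15 alternatives run for it, and the choice of probes without overlap fixes this when a sample is left out. Those of Mir195 (0.79 to 1.35) and Mir301b (1.15 to 1.91) moved by less than the SD within groups. Mir410 became 2.70 after quantile normalization, 0.50 with values under 5 set to 5 and 2.58 with values under 2 set to 2. Mir3545 became 1.22 and 4.19 with values under 5 and under 2 raised. The floor of 2 replaces the low band by construction, and the floor of 5 also replaces values between 2 and 5, among them Mir410 in denervated 1 and denervated 2. Without 1 sample Mir410 ranged from 4.14 to 5.91 and Mir3545 from 5.27 to 6.65.

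The 4 microRNA probes higher at the thresholds became 2 with values under 5 set to 5 (Mir410 and Mir3545 lost), 0 in the brighter 50% of probes (which holds none of the 4), 2 with the replicate block, 2 with an intensity trend (Mir195 and Mir301b lost in both), and 15 without denervated 3 and normal 2, where 6 were lower against 0. Without 1 sample the counts ranged from 2 to 14 higher and from 0 to 7 lower, with 14 without normal 2 and 7 and 7 without denervated 3. Over all probes, the 70 higher became 26 in the brighter 50%, 37 with the methods' t-test and 269 without denervated 3 and normal 2, and 39 (without denervated 1) to 245 (without normal 2) without 1 sample, with 133 without denervated 3. The 20 lower became 34 after quantile normalization, 8 in the brighter 50%, 11 with the block, 9 with the t-test and 93 without denervated 3 and normal 2, and 6 (without normal 3) to 90 (without denervated 2) without 1 sample, with 79 without denervated 3 and 73 without normal 2. The 1 probe at an adjusted p under 0.05, none of the 4, became 0 after quantile normalization, with values under 5 set to 5, in the brighter 50%, with the block, with the trend and with the t-test. In these settings 144, 170, 78, 62, 143 and 162 probes had an unadjusted p under 0.05, against 132 in the fit without these changes. It was 3 without denervated 3 and normal 2 and 0 to 9 without 1 sample. The 0 list probes past the thresholds, cell type markers not counted, became 2 without denervated 3 and normal 2 and 0 to 2 without 1 sample. For the fits that leave out samples, the block, the trend and the t-test, the cause was not tested.

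The sources used here do not state the pairs. Same-numbered samples had deviations correlating at -0.05, -0.52 and -0.35, and for no sample was its own number the best match, so the replicate block rests on a shared number only. With it 51 probes were higher and 11 lower, and Mir195 and Mir301b did not pass. Apart from the low band, the values hold no measure of background. After quantile normalization 70 were higher and 34 lower.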
